A study of Mus musculus with 7 samples.

Results

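The genes described here encode the co-receptors, adaptors and kinases that carry a signal from Toll-like receptor 4 (TLR4) to the transcription factors NF-kB and IRF3. The set holds 10 genes, named by their role: the co-receptors Cd14 and Ly96, the MyD88 branch with Myd88, Tirap and Traf6, and the TRIF branch with Ticam1, Ticam2, Traf3, Tbk1 and Ikbke. A gene counted as measured where an array probeset carried its symbol and no other symbol, and 9 of the 10 were measured among 19938 genes in all. Each of the 9 had 1 such probeset. Traf3 was under no probeset of the platform annotation used, and its level is not analysed here.

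The cells were lung CD11b+ conventional dendritic cells (cDC2s), a subset that carries inhaled antigen to lymph nodes and primes T cells, sorted as Cd11c+ Mhc2+ Cd11b+ Ly6c- Cd64- cells. All mice were female and of the C57Bl/6 background, and each of the 7 arrays held RNA from 1 pool of 10 mice. The groups were 2 pools from wild type mice given PBS (untreated), 2 pools from wild type mice given 100 µg of house dust mite extract, and 3 pools from Irf3-deficient mice given the same dose of extract. Cells were taken 12 hours after treatment. The groups are called PBS pools, mite pools (both wild type) and Irf3-deficient pools below where single arrays are given. The age of the mice and the kind of Irf3 allele are not given in the sources used here, and no untreated Irf3-deficient group is analysed here. The design addresses how these cells respond to the allergen and how the treated cells differ without Irf3.

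TLR4 recognises bacterial lipopolysaccharide. CD14 passes the ligand to TLR4 and its partner MD-2, the product of Ly96, and also drives uptake of the receptor into endosomes. At the cell surface TIRAP brings MyD88 to the receptor, and MyD88 signals through the ubiquitin ligase TRAF6 to NF-kB and inflammatory cytokine genes. From endosomes TRAM, the product of Ticam2, brings TRIF, the product of Ticam1, which signals through TRAF3 to the kinases TBK1 and IKK-epsilon, and these phosphorylate IRF3, the inducer of interferon beta. Mite extract contains lipopolysaccharide, and the mite allergen Der p 2 resembles MD-2.

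The values are log2 expression levels, so a difference of 1 is a doubling. Array medians lay between 7.60 and 7.69, and the correlation between arrays within a group was 0.995 to 0.997. Irf3 stood at 9.48 to 9.59 on the wild type arrays and at 8.13 to 8.30 on the Irf3-deficient arrays. The mean log2 level of 13 cDC2 markers was 12.73 and 12.74 in the PBS pools, 12.53 and 12.54 in the mite pools, and between 12.66 and 12.78 in the Irf3-deficient pools. In wild type cells 4 of them fell, Itgam (-1.06), Clec10a (-0.68), Mgl2 (-0.56) and Cd209a (-0.41), and 2 rose, Ccr7 (0.57) and Zbtb46 (0.38). In treated Irf3-deficient against treated wild type cells 5 were higher and 1 lower. The share of cDC2 markers passing the threshold given below was 46.2% in both comparisons, against 17.6% and 19.7% of all genes. Markers of other cell types also moved between groups, and their values are given beside Cd14 below. Since the cells were profiled in bulk, fewer cells of a type and less RNA per cell cannot be told apart.

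House dust mite extract changed most of the set in wild type cDC2s, in both directions. Ly96, Myd88, Traf6 and Tbk1 rose, while Cd14, Tirap and Ticam2 fell. Ticam1 and Ikbke, at log2 differences of 0.40 and 0.34, did not pass the threshold, an adjusted p under 0.05 in limma. The 7 called genes compare with 17.6% of all genes called in this comparison, of which 8.35% were higher and 9.23% lower. The median difference over the 9 genes was 0.40, and it was 0.03 over all genes. For all 9 genes the 2 treated and the 2 untreated wild type arrays did not overlap, with 6 genes above and 3 below, as was so for 52.6% of all genes (28.5% above and 24.1% below). Without untreated replicate 2, or without treated wild type replicate 2, the number of risers was 2 in place of 4.

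**Figure D1:**
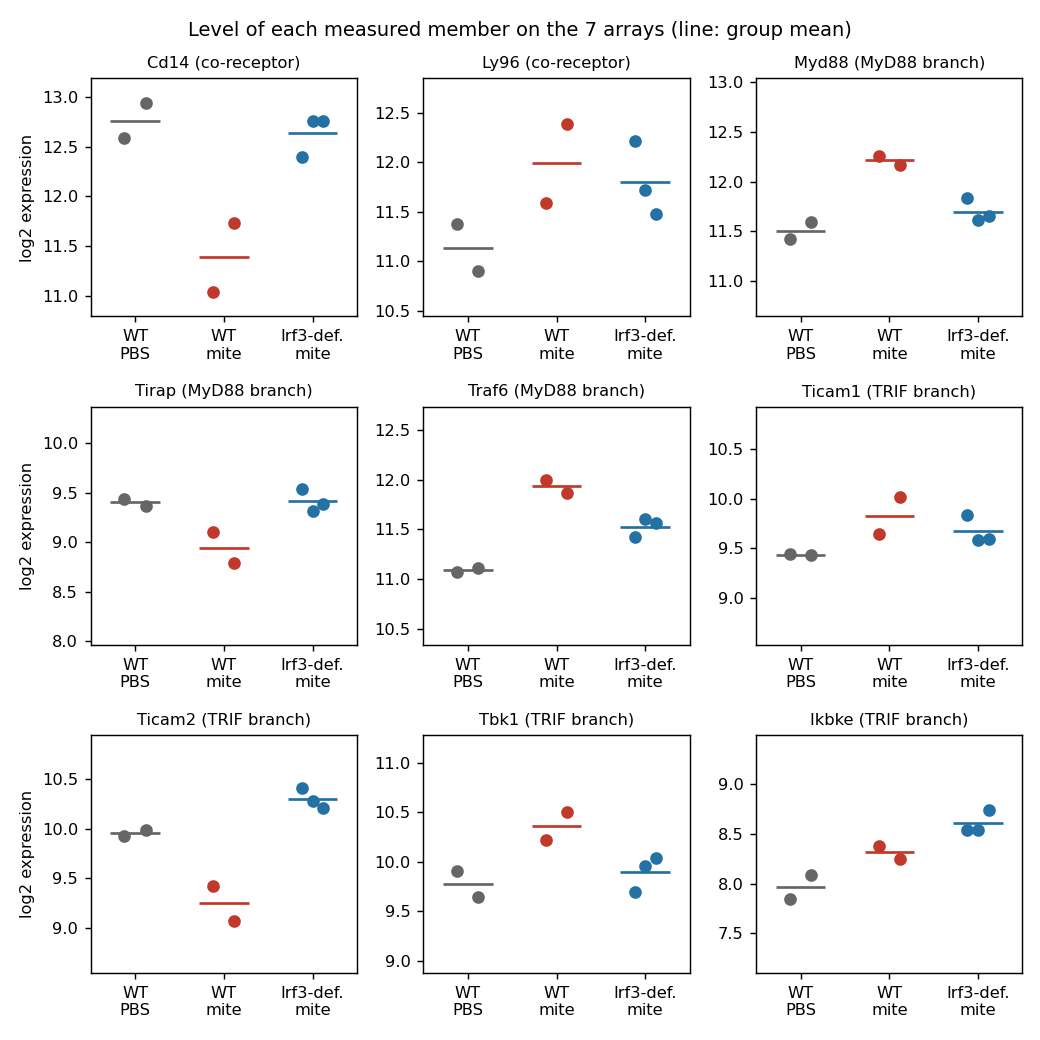
Log2 expression of the 9 measured genes, 1 panel per gene, with 1 point per array and a line at each group mean, for 2 untreated wild type (WT PBS), 2 mite-treated wild type and 3 mite-treated Irf3-deficient pools; every panel spans the same log2 range. Cd14, Tirap and Ticam2 are lowest on the treated wild type arrays, Myd88, Traf6 and Tbk1 are highest there, and Ikbke is highest on the Irf3-deficient arrays.

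Treated Irf3-deficient cells differed from treated wild type cells in 6 of the 9 genes. Cd14, Tirap and Ticam2 were higher and Myd88, Traf6 and Tbk1 were lower, whereas Ly96, Ticam1 and Ikbke did not pass. In this comparison 19.7% of all genes were called, 10.7% higher and 9% lower. The median difference was -0.16 over the 9 genes and 0.00 over all genes. The 2 groups did not overlap for 7 of the 9, with 4 above and 3 below, against 43.7% of all genes (23.2% above and 20.5% below). This comparison and the wild type response both use the 2 mite pools, once added and once subtracted, so each gene's values are given side by side and opposite directions are not read as a separate result.

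Against untreated wild type cells, treated Irf3-deficient cells differed in 2 of the 9 genes. Traf6 and Ikbke were higher, and no gene of the set was lower. Here 10.8% of all genes were called, 5.89% higher and 4.91% lower. Ly96 at 0.66 and Ticam2 at 0.34 had an unadjusted p under 0.05 in limma but did not pass after adjustment. The share of all genes at that looser threshold is not given here. The medians were 0.23 over the 9 genes and 0.04 over all genes, and 6 of the 9 lay above without overlap and 0 below, against 39.1% of all genes (22% above and 17% below). Genotype and treatment cannot be told apart in this comparison. Without untreated replicate 1 no gene of the set was called.

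**Figure D2:**
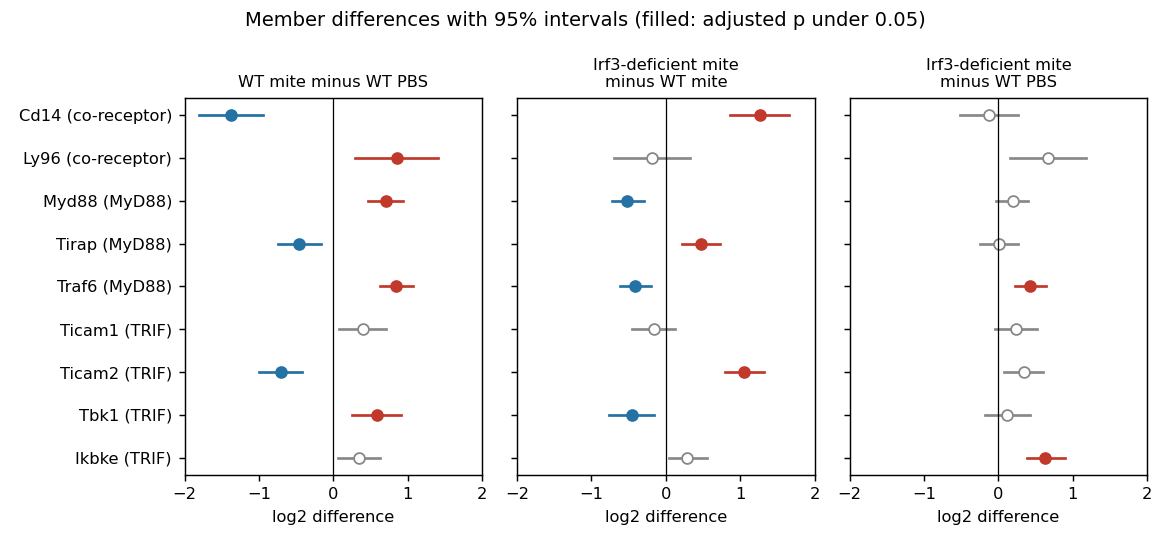
Log2 differences with 95% confidence intervals from limma for the 9 measured genes in the 3 comparisons, filled where the adjusted p was under 0.05 (red higher, blue lower). Filled points lie on both sides of 0 in the first 2 panels, and the third holds 2, both above 0.

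Cd14 showed the largest differences of the 9 genes in the first 2 comparisons. Its log2 level was 12.59 and 12.94 in the PBS pools, 11.04 and 11.73 in the mite pools, and 12.40, 12.76 and 12.76 in the Irf3-deficient pools. Both treated wild type arrays lay below all others, and the Irf3-deficient arrays lay within or just below the untreated range. Cd14 thus fell from 12.77 ± 0.25 to 11.38 ± 0.49 (SD, n = 2 each), a 2.61-fold fall (95% CI 1.93 to 3.51; adjusted p = 0.000332 in limma). It was 2.39-fold higher in treated Irf3-deficient than in treated wild type cells (95% CI 1.82 to 3.13; adjusted p = 0.000335 in limma). From untreated wild type, Irf3-deficient cells differed by -0.13 (95% CI -0.52 to 0.27; adjusted p = 0.753 in limma). The fall ranged from -1.73 to -1.03 when each array was left out in turn, and both calls held.

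Most monocyte and macrophage markers moved in the same directions as Cd14. Of 15 measured markers, 14 fell and 1 rose in treated wild type cells. Between the treated genotypes 11 were higher and 2 lower in Irf3-deficient cells. The shares called were 100% and 86.7%, against 17.6% and 19.7% of all genes. The mean log2 level of the 15 was 11.48 and 11.74 on the untreated arrays, 10.19 and 10.60 on the treated wild type arrays, and between 11.03 and 11.14 on the Irf3-deficient arrays. The sum of their linear values ranged from 69800 to 81800, from 31100 to 39200 and from 59400 to 63700 in the same order. Apoe, a lipid carrier gene, differed from Cd14 in being lowest in the Irf3-deficient pools, at 9.87, 10.24 and 10.29. The riser was Fcgr1, which encodes the CD64 used to leave macrophages out, at a log2 difference of 1.79. Whether such cells contribute to the Cd14 values was not tested. Neutrophils also express Cd14, and of their 10 measured markers Ly6g rose in treated wild type cells, by 0.36, and Cxcr2 and Mmp9 were higher in treated Irf3-deficient than in treated wild type cells. Of 9 alveolar macrophage markers 1 rose and 4 fell in treated wild type cells, and between the treated genotypes 3 were higher and 0 lower, among them Mrc1 at 1.26 and Pparg at 0.79. Of 10 epithelial, endothelial and stromal markers 0 rose and 6 fell, and between the treated genotypes Epcam was higher, at 1.78, and Sftpc lower, at -0.53. Of 8 markers of the other conventional dendritic cell subset, cDC1s, 2 rose and 3 fell, and 2 were higher and 3 lower between the treated genotypes, with Irf8 at 1.61 and -1.19. Of 9 T, NK and B cell markers 2 rose and 0 fell, and 1 was higher and 2 lower. The shares called in wild type cells and between the treated genotypes were 10% and 20% for neutrophil markers. They were 55.6% and 33.3% for alveolar macrophage markers, and 60% and 20% for epithelial, endothelial and stromal markers. For cDC1 markers they were 62.5% in both, and for T, NK and B cell markers 22.2% and 33.3%. Of all genes 17.6% and 19.7% were called. The part of these cells in the results was not tested.

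**Figure D3:**
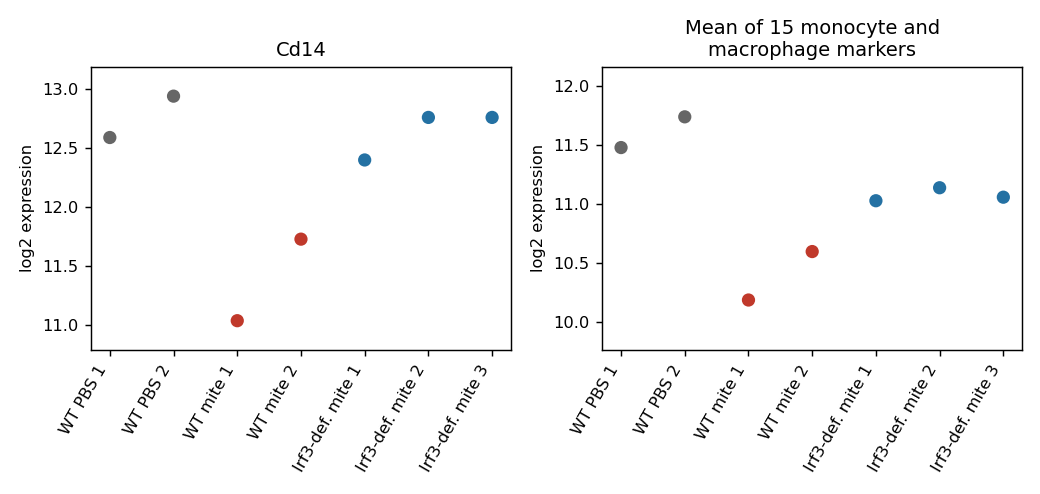
Log2 expression of Cd14 (left) and the mean log2 level of 15 monocyte and macrophage markers (right) on each of the 7 arrays, coloured by group. Both are lowest on the 2 treated wild type arrays, where replicate 1 is below replicate 2 in both panels.

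Among 942 other genes whose group means spanned at least 1 on the log2 scale, the 3 with the highest Pearson correlation to Cd14 were Ms4a7, a membrane protein gene of macrophages, at 0.983, Csf1r at 0.983 and the complement gene C1qc at 0.981. Each is on the list of monocyte and macrophage markers above. For Ticam2, the other gene of the set with such a span, the closest were the coagulation inhibitor gene Tfpi, the membrane protein gene Emp1 and the kinase gene Srpk2, each at 0.988. These correlations describe 7 arrays in 3 groups and carry no test.

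Ly96, the gene of MD-2, had the largest spread within each group among the 9 genes. It stood at 11.38 and 10.90 in the PBS pools, 11.59 and 12.39 in the mite pools, and 12.21, 11.72 and 11.48 in the Irf3-deficient pools. Both treated groups lay above the untreated arrays and overlapped with each other. The rise in wild type cells was 0.85 ± 0.26 (SE; adjusted p = 0.0398 in limma), and the treated genotypes differed by -0.19 (95% CI -0.70 to 0.33; adjusted p = 0.708 in limma). Without either untreated array the rise did not pass, at 1.09 (replicate 1) and 0.61 (replicate 2), nor without treated wild type replicate 2, at 0.45, or Irf3-deficient replicate 2, at 0.85. It also missed the threshold after median centring of the arrays, at 0.86.

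Tlr4 itself, their receptor, stood at 8.93 and 8.42 in the PBS pools, 7.98 and 8.11 in the mite pools, and 8.24, 7.95 and 7.99 in the Irf3-deficient pools. All 5 treated arrays lay below both untreated ones, at levels close to the median of 7.91 over all genes and arrays. It fell by 0.63 in wild type cells (adjusted p = 0.0168 in limma) and the treated genotypes lay 0.01 apart (adjusted p = 0.972 in limma). Untreated replicate 1 set much of that size, since the fall was -0.37 without it and did not pass, and without treated wild type replicate 1 it was -0.56 and did not pass.

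In the MyD88 branch, the central adaptor and the ubiquitin ligase rose while the bridging adaptor fell. Myd88 stood at 11.42 and 11.59 in the PBS pools, 12.26 and 12.17 in the mite pools, and 11.83, 11.61 and 11.65 in the Irf3-deficient pools. The treated wild type arrays lay apart above all others. Myd88 rose 1.63-fold (95% CI 1.38 to 1.92; adjusted p = 0.000598 in limma) and was 1.43-fold lower in treated Irf3-deficient than in treated wild type cells (95% CI 1.23 to 1.66; adjusted p = 0.00253 in limma). Irf3-deficient and untreated wild type cells differed by 0.19 (95% CI -0.03 to 0.40), which did not pass. The first 2 calls held without any 1 array.

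The promoters of the set were searched for binding motifs of interferon-activated factors and NF-kB. RefSeq windows (GRCm38.p6) of 250 bases before to 50 after the start were at hand for 7 of the 10 genes, in 8 windows, and not for Cd14, Ly96 and Ticam2. The core of the interferon-stimulated response element (ISRE), searched on both strands as GAAA, any 2 bases and GAAA again, was in the Myd88 window and in none of the other 6 genes' windows, and 3.44% of 32851 promoter windows of that length held it. The Myd88 match starts 40 bases before the start site. A STAT motif (GAS), TTC, any 3 bases and GAA, begins 46 bases upstream and overlaps the ISRE match; 8.30% of windows held that motif and none of the other 6 genes searched did. The NF-kB consensus was found in the Traf3 window alone of these, and 4.51% of windows held it. The 100 bases before the start are shown for the 4 genes with a window that were higher in a treated group, with the ISRE core in capitals where present: Myd88 at chr9:119340019-119340118 (minus strand), Traf6 at chr2:101678320-101678419 (plus strand), Tbk1 at chr10:121586795-121586894 (minus strand) and Ikbke at chr1:131279564-131279663 (minus strand).
Myd88: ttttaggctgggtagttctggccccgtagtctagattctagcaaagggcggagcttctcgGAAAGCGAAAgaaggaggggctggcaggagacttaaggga
Traf6: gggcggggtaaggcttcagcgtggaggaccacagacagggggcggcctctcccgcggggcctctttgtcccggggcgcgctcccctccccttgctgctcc
Tbk1: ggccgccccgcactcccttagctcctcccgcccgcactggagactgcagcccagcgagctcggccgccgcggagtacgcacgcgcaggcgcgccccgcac
Ikbke: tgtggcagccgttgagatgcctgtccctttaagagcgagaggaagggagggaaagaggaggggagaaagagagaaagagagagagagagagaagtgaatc
A match describes letters in a window and not binding in these cells.

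Traf6 stood at 11.07 and 11.11 in the PBS pools, 12.00 and 11.87 in the mite pools, and 11.42, 11.60 and 11.56 in the Irf3-deficient pools. The 3 groups did not overlap, and the Irf3-deficient arrays lay between the wild type groups. Traf6 rose 1.80-fold (95% CI 1.53 to 2.10; adjusted p = 0.00011 in limma) and was 1.33-fold lower in treated Irf3-deficient than in treated wild type cells (95% CI 1.15 to 1.54; adjusted p = 0.00858 in limma). It was 1.35-fold higher in treated Irf3-deficient than in untreated wild type cells (95% CI 1.17 to 1.56; adjusted p = 0.0125 in limma). The difference between the treated genotypes missed the threshold without treated wild type replicate 1 (-0.34). The one against untreated wild type missed it without untreated replicate 1 (0.41), untreated replicate 2 (0.45) or Irf3-deficient replicate 2 (0.39).

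Tirap, whose product brings MyD88 to the receptor, ran the other way. Its level was 9.44 and 9.37 in the PBS pools, 9.10 and 8.79 in the mite pools, and 9.54, 9.32 and 9.39 in the Irf3-deficient pools. The treated wild type arrays were the lowest, and the other 5 overlapped. It fell by 0.46 ± 0.13 (SE; adjusted p = 0.0304 in limma), was higher by 0.47 ± 0.12 in treated Irf3-deficient than in treated wild type cells (adjusted p = 0.0152 in limma), and differed by 0.01 from untreated wild type (95% CI -0.25 to 0.27). The fall did not pass without untreated replicate 1 (-0.43), untreated replicate 2 (-0.49) or treated wild type replicate 2 (-0.31), and without that last array the genotypes differed by 0.31, which did not pass.

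In the TRIF branch, the bridging adaptor fell and 1 kinase rose in wild type cells. Ticam2, the gene of TRAM, stood at 9.93 and 9.99 in the PBS pools, 9.42 and 9.07 in the mite pools, and 10.41, 10.28 and 10.21 in the Irf3-deficient pools. The 3 groups did not overlap, with the Irf3-deficient arrays highest. Ticam2 fell 1.64-fold (95% CI 1.34 to 2.01; adjusted p = 0.00233 in limma) and was 2.07-fold higher in treated Irf3-deficient than in treated wild type cells (95% CI 1.72 to 2.49; adjusted p = 6.66e-05 in limma). Its excess of 0.34 over untreated wild type did not pass (95% CI 0.07 to 0.60; adjusted p = 0.108 in limma). The 2 calls held without any 1 array.

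Tmed7, a gene of cargo transport in the secretory pathway that neighbours Ticam2 in GRCm38.p6, has a probeset of its own. It differed by -0.02 between the wild type groups (adjusted p = 0.937 in limma) and was higher by 0.32 in treated Irf3-deficient than in treated wild type cells (adjusted p = 0.012 in limma), a call lost without treated wild type replicate 1 (0.27) or Irf3-deficient replicate 2 (0.30).

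Ticam1, the gene of TRIF itself, did not pass in any of the 3 comparisons. It stood at 9.44 and 9.43 in the PBS pools, 9.64 and 10.02 in the mite pools, and 9.84, 9.58 and 9.59 in the Irf3-deficient pools. All treated arrays lay above both untreated ones, and the treated genotypes overlapped. The wild type difference was 0.40 (95% CI 0.08 to 0.71; adjusted p = 0.0847 in limma) and passed only without treated wild type replicate 1, at 0.59. Between the treated genotypes it was -0.16 (95% CI -0.45 to 0.12), and 0.03 without treated wild type replicate 2.

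The IRF3 kinases differed from each other in their order over the groups. Tbk1 stood at 9.91 and 9.65 in the PBS pools, 10.22 and 10.50 in the mite pools, and 9.70, 9.96 and 10.04 in the Irf3-deficient pools. The treated wild type arrays were the highest, and the other 5 overlapped. Tbk1 rose by 0.58 ± 0.15 (SE; adjusted p = 0.0171 in limma) and was lower by a difference of -0.46 ± 0.14 in treated Irf3-deficient than in treated wild type cells (adjusted p = 0.0313 in limma). The rise did not pass without untreated replicate 2 (0.45) or treated wild type replicate 2 (0.44). The difference between genotypes did not pass without that treated array (-0.32), Irf3-deficient replicate 1 (-0.36) or Irf3-deficient replicate 2 (-0.49).

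Ikbke, the gene of IKK-epsilon, stood at 7.85 and 8.09 in the PBS pools, 8.38 and 8.25 in the mite pools, and 8.54, 8.54 and 8.74 in the Irf3-deficient pools. These levels are close to the median of 7.91 over all genes and arrays. The groups did not overlap, and the order was untreated wild type, treated wild type, Irf3-deficient. The first step of 0.34 (adjusted p = 0.0933 in limma) and the second of 0.29 (adjusted p = 0.112 in limma) did not pass, although the first did after median centring of the arrays, at 0.36. The whole difference between treated Irf3-deficient and untreated wild type cells was 1.55-fold (95% CI 1.30 to 1.85; adjusted p = 0.00432 in limma), and it did not pass without untreated replicate 1 (0.51). Whether Tbk1 and Ikbke differ in their response was not tested.

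Set side by side, the branches did not separate by direction. In wild type cells all 3 measured genes of the MyD88 branch passed, 2 higher and 1 lower, with a median difference of 0.71. Of the 4 measured in the TRIF branch 2 passed, 1 higher and 1 lower, with a median of 0.37. Of all genes 17.6% were called there, and their median was 0.03. In each branch the bridging adaptor, Tirap or Ticam2, was the gene that fell. With each array left out in turn, the difference ranged from -0.61 to -0.31 for Tirap and from -0.89 to -0.54 for Ticam2. The call of Tirap depended on single arrays, as given above. Between the treated genotypes the medians were -0.41 for the MyD88 branch, with 1 higher and 2 lower, and 0.06 for the TRIF branch, with 1 higher and 1 lower. Of all genes 19.7% were called there, and their median was 0. Against untreated wild type the medians in Irf3-deficient cells were 0.19 and 0.28, with 1 higher and 0 lower in each branch. In that comparison 10.8% of all genes were called, and their median was 0.04. The branches hold few genes and the difference between them was not tested.

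Other genes of the pathway, 46 measured of 51 listed, were also spread over both directions. In wild type cells 8 rose and 5 fell, between the treated genotypes 7 were higher and 9 lower, and against untreated wild type 7 were higher and 4 lower. Their median differences were 0.01, 0.03 and -0.02, beside 0.03, 0.00 and 0.04 over all genes. The share called was 28.3%, 34.8% and 23.9%, against 77.8%, 66.7% and 22.2% of the 9 genes of the set and 17.6%, 19.7% and 10.8% of all genes. The partner shares in the comparisons with Irf3-deficient cells count Irf3 itself, whose lower level follows from the genotype. The all-gene shares given here and elsewhere include dim genes. With only the genes above the median level fitted, 3386 were called in the wild type response, beside 3505 of all 19938. The share among these brighter genes, which include all 9 of the set, was therefore higher than 17.6%. Whether these shares differ was not tested.

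Among 7 receptor partners of TLR4, 2 fell and 0 rose in wild type cells, where 17.6% of all genes were called. Besides Tlr4, the chaperone gene Hsp90b1, whose product folds Toll-like receptors, fell by 0.42 (adjusted p = 0.0052 in limma), a call lost without untreated replicate 1 (-0.36). None of the 7 passed between the treated genotypes, where 19.7% of all genes were called. Their differences there ran from -0.17 to 0.17. The same genes, Tlr4 at -0.61 and Hsp90b1 at -0.35, were lower in treated Irf3-deficient than in untreated wild type cells (28.6% called, against 10.8% of all genes). Both of those calls were lost without untreated replicate 1 (-0.36 and -0.29) and without Irf3-deficient replicate 2 (-0.56 and -0.35), and that of Tlr4 also without Irf3-deficient replicate 3 (-0.58).

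Of 12 measured partners of the MyD88 arm, 3 rose and 0 fell in wild type cells (25% called, against 17.6% of all genes), with a median of 0.19. Ube2n, the ubiquitin-conjugating enzyme that works with TRAF6, rose by 0.48, and Tab3, an adaptor of the kinase TAK1, rose by 0.43. The third was the IkB kinase gene Ikbkb, at 0.41. Each of the 3 calls was lost when some single array was left out. Ube2n was lost without untreated replicate 2 (0.45) or treated wild type replicate 2 (0.44). Tab3 was lost without untreated replicate 2 (0.29), treated wild type replicate 1 (0.42) or 2 (0.43), or Irf3-deficient replicate 2 (0.43). Ikbkb was lost without any wild type array (0.37 to 0.45) or Irf3-deficient replicate 2 (0.41), and also with array weights (0.41), median centring (0.43) or no intensity trend (0.41). Tab3 also missed the threshold with only the wild type arrays in the fit (0.43). The IRAK kinase genes Irak1 and Irak2, which follow MyD88 directly, stood at -0.17 and 0.10. Ikbkb, Irak1 and Irak2 are named here after their values were seen.

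Between the treated genotypes 2 MyD88 arm partners were higher and 1 lower (25% called, against 19.7% of all genes). Ikbkg, the regulatory subunit of the IkB kinase complex, was higher by 0.59 and Map3k7, the gene of TAK1, by 0.38, while Ikbkb differed by -0.42. Without treated wild type replicate 2 the values of Ikbkg, Map3k7 and Ikbkb were 0.36, 0.26 and -0.46, and none passed. Map3k7 was also lost without Irf3-deficient replicate 2 (0.40) or 3 (0.34), and Ikbkb without treated wild type replicate 1 (-0.38) or Irf3-deficient replicate 1 (-0.31) or 2 (-0.45). Compared with untreated wild type, Ikbkg was higher by 0.79 and Tab2, another TAK1 adaptor gene, by 0.34 (16.7% called, against 10.8% of all genes). Ikbkg was lost without untreated replicate 1 (0.60), and Tab2 without untreated replicate 1 (0.39) or 2 (0.29) or Irf3-deficient replicate 2 (0.36).

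Of 10 measured partners of the TRIF arm, 4 rose and 0 fell in wild type cells (40% called, against 17.6% of all genes), with a median of 0.06. Irf7, an interferon-inducible relative of Irf3, stood at 9.40 and 9.44 in the PBS pools, 13.37 and 13.56 in the mite pools, and 10.70, 10.54 and 10.20 in the Irf3-deficient pools. The groups did not overlap, and the Irf3-deficient arrays lay nearer to the untreated ones. Peli1, a ubiquitin ligase gene of TRIF signalling, rose from 11.14 and 11.14 to 12.24 and 12.11 and lay at 11.55, 11.62 and 11.62 in Irf3-deficient cells. It was 1.04 higher in treated than in untreated wild type cells (adjusted p = 1.05e-05 in limma), -0.58 between the treated genotypes (adjusted p = 0.000535 in limma) and 0.46 above untreated wild type in Irf3-deficient cells (adjusted p = 0.00604 in limma), the last call lost without untreated replicate 1 (0.46).

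The other TRIF arm genes that rose are both scaffolds of TBK1, and they differed in the Irf3-deficient arrays. Tank stood at 11.79 and 11.75, at 12.42 and 12.42, and at 12.28, 12.28 and 12.27 in the same order of groups. It rose by 0.65 (adjusted p = 0.000183 in limma), and the treated genotypes differed by -0.14 (adjusted p = 0.275 in limma). Azi2 stood at 9.76 and 9.62, at 10.44 and 10.60, and at 9.68, 9.78 and 9.62. It rose by 0.83 (adjusted p = 0.000336 in limma), was lower in Irf3-deficient than in treated wild type cells by a difference of -0.83 (adjusted p = 0.000173 in limma), and differed by 0.00 from untreated wild type. Azi2 and Tank are named after their values were seen, and the difference between them was not tested.

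Between the treated genotypes 4 TRIF arm partners were lower, Irf3 itself, Irf7 (-2.99), Azi2 and Peli1. Another 2 were higher, Tmed7 and the death domain adaptor gene Fadd at 0.49. Of the arm 60% was called, against 19.7% of all genes. Irf3 is counted here although its lower level follows from the genotype. Fadd was lost without treated wild type replicate 1 (0.42). Against untreated wild type 5 were higher and Irf3 was lower (60% called, against 10.8% of all genes). The 2 higher ones of smallest p were Irf7 at 1.06 and Tank at 0.51. The others were Peli1, Fadd at 0.53, lost without untreated replicate 2 (0.42), and Tmed7 at 0.30. Tmed7 was lost without untreated replicate 1 (0.25) or 2 (0.35) or Irf3-deficient replicate 2 (0.29) or 3 (0.31), and without the intensity trend (0.30). Fadd, Peli1 and Tmed7 are named here after their values were seen.

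**Figure D4:**
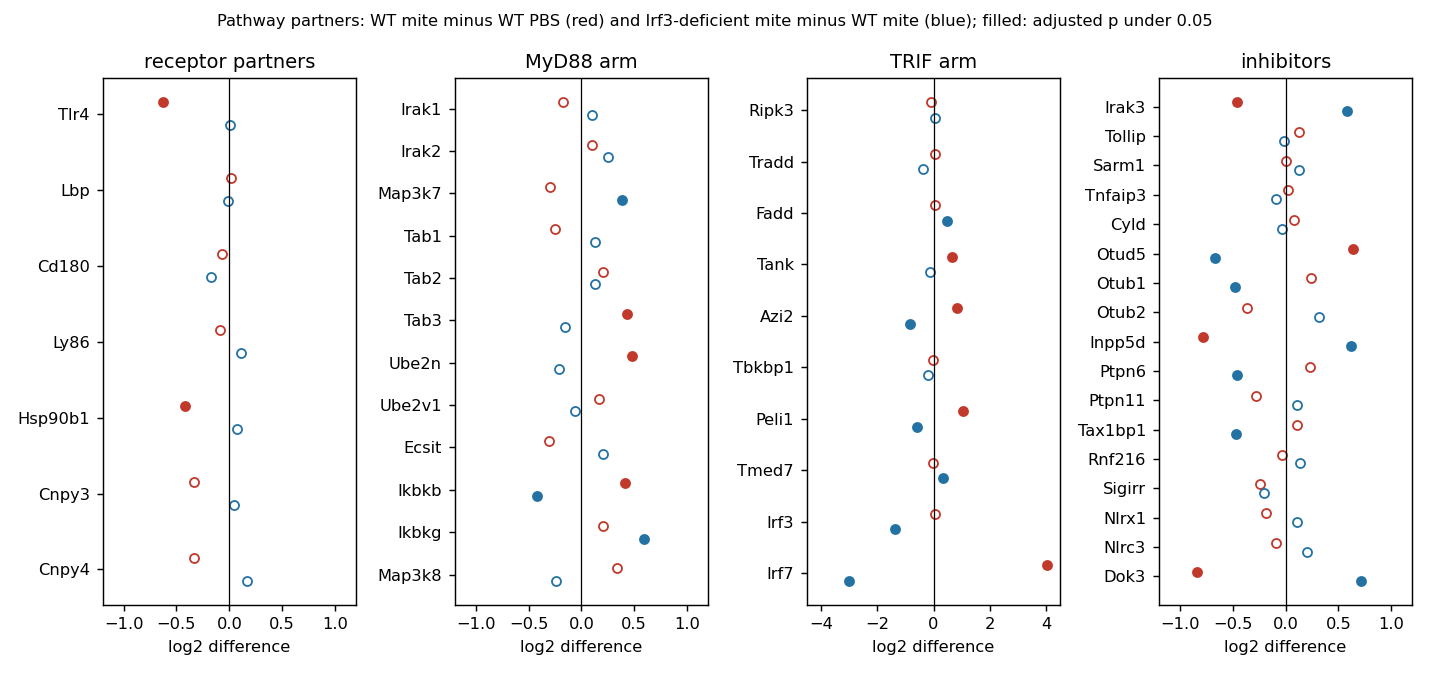
Log2 differences of 46 pathway partners in 4 lists, for mite-treated against untreated wild type (red) and treated Irf3-deficient against treated wild type (blue), filled where the adjusted p from limma was under 0.05; the TRIF arm panel has a wider axis than the others. Tlr4 is filled only in red, and Ikbkb, Azi2, Peli1, Irf7, Otud5, Inpp5d, Dok3 and Irak3 are filled in both colours on opposite sides of 0; both comparisons use the mite pools.

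Of 17 measured inhibitors of the pathway, 1 rose and 3 fell in wild type cells (23.5% called, against 17.6% of all genes). Otud5, whose product removes ubiquitin from TRAF3, rose by 0.64 (adjusted p = 0.000582 in limma). Inpp5d, the gene of the lipid phosphatase SHIP1, and the adaptor gene Dok3 fell by 0.78 and fell by 0.84. Irak3, the gene of the inhibitory kinase IRAK-M, stood at -0.46, a call lost without untreated replicate 1 (-0.43) or 2 (-0.49) or treated wild type replicate 2 (-0.30). Tnfaip3, the gene of the ubiquitin-editing enzyme A20, was level at 13.19 to 13.37 over the 7 arrays.

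Between the treated genotypes 3 inhibitors were higher and 4 lower (41.2% called, against 19.7% of all genes). Inpp5d was higher by 0.62 and Irak3 by 0.58, the latter lost without treated wild type replicate 2 (0.43), and Dok3 was the third at 0.71. Otud5 differed by -0.67 (adjusted p = 0.000207 in limma) and Otub1, another deubiquitinase gene, by -0.48. The phosphatase gene Ptpn6 and the autophagy adaptor gene Tax1bp1 completed the lower ones at -0.46 and -0.47, with Tax1bp1 lost without treated wild type replicate 2 (-0.44). In the comparison with untreated wild type only Sigirr, a decoy-like receptor gene, passed, at -0.44 (5.88% called, against 10.8% of all genes). That call was lost without untreated replicate 1 (-0.38) or Irf3-deficient replicate 3 (-0.41). Tnfaip3, Ptpn6, Tax1bp1, Irak3 in the wild type response and Dok3 between genotypes are named after their values were seen.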

How the data were processed

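The deposited values are log2 expression levels per probeset (Mouse Gene 1.0 ST platform) and 35556 probesets on 7 arrays were used. R 3.2.1, RMA and oligo are named per the submitters' processing notes, without roles; RMA usually includes quantile normalisation, so a change common to most genes would be hidden. Probesets with 1 gene symbol (21789) were named through the platform annotation and RefSeq (GRCm38.p6; 19856 of 19938 genes matched), and the brightest by mean of 7 arrays was kept for the 999 genes with several. No filter was applied.

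A linear model with a mean for each group was fitted to the 7 arrays in limma 3.58.1 (R 4.3.3; intensity trend; 4 residual and 8.34 prior degrees of freedom), two-sided, adjusted by Benjamini-Hochberg over all genes. The fit was tested on simulated data. P-values measure the spread between pools; the number of arrays limits precision. Named genes were all members, up to 2 pathway partners per list, direction and comparison by smallest p, and the 3 genes most correlated with members whose group means span at least 1. The members and lists were chosen with earlier results of these data known. Same-numbered arrays were checked for pairing. Alternatives were the prior trend, array weights, centring, the groups fitted, a replicate block, probeset choice, a filter on dim genes and leaving out each array.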

Additional observations from a re-analysis of the deposited data

How the results depend on the processing

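Leaving out 1 array moved the counts most. The genes called ranged from 2333 to 3724 for treated against untreated wild type, from 2562 to 3906 between the treated genotypes and from 749 to 2359 for Irf3-deficient against untreated wild type. Members of the set called higher ranged from 2 to 5 in the first and from 0 to 3 in the last, where pathway partners called ranged from 4 to 12. Signs turned for differences that had not passed. Between the treated genotypes Ly96 ranged from -0.59 to 0.22 and Ticam1 from -0.36 to 0.03. Against untreated wild type Cd14 ranged from -0.30 to 0.05, Tirap from -0.05 to 0.06 and Tbk1 from -0.01 to 0.25, and Tirap was -0.02 with array weights. With the replicate number as a block, that comparison had 1426 genes, 1 member and 7 partners called, and Traf6 was 0.42 and did not pass. Under the block the partner calls of Tab3 (0.43) and Ikbkb (0.41) in the wild type response were also lost, as were Map3k7 (0.34) and Tmed7 (0.33) between the treated genotypes and Hsp90b1 (-0.35), Tab2 (0.36), Tmed7 (0.31) and Sigirr (-0.41) against untreated wild type. Deviations of same-numbered arrays from their group means correlated at -0.23 to 0.18 over the pairs. In a group of 2 arrays these deviations mirror each other, so the check cannot decide whether the numbers pair the arrays. Exchanging the numbers of the treated wild type arrays, chosen after seeing the data, gave 3508 genes called in the wild type response. The causes were not tested.

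Settings other than leaving out an array changed 4 calls of members and 1 sign, none of them between the treated genotypes; Traf6 and Tirap are given above. Ly96 missed the threshold in the wild type response (0.86) and Ikbke reached it (0.36) after centring; with only the groups compared, Ly96 passed against untreated wild type (0.66). The arrays carry no detection call, so levels near background could not be marked.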
